A study of Mus musculus with 12 samples.

Results

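The strands of the tight junction are built from claudins and occludin, and 10 of these genes (Cldn1, Cldn2, Cldn3, Cldn4, Cldn7, Cldn8, Cldn14, Cldn15, Cldn23 and Ocln) were followed in the mouse ileum. They were taken by name, as the rows of the deposited count table whose Ensembl identifiers map to these symbols, and they are 10 of the 54838 genes of that table. All 10 passed the filter on low counts, among 15938 genes in all. The 12 libraries are RNA of whole ileum from C57BL/6J mice, with 3 mice in each of 4 groups. Mice drank normal water or water with 25 mM ZnSO4 for 7 days, were then injected with 200 µg dexamethasone (Dex, a synthetic glucocorticoid) in PBS or with PBS only, and were sampled 2 h later. The groups are called water + PBS (the control), ZnSO4 + PBS, water + Dex and ZnSO4 + Dex. The study's methods give adult female mice from a commercial breeder. All groups were injected, with Dex or with PBS alone. The design allows the effect of zinc to be read with and without Dex, and the effect of Dex with and without zinc.

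Claudins span the membrane several times and pair with claudins of the neighbouring cell, and the extracellular loops of each claudin set which ions and how much water pass between cells. Some of them, such as Cldn2 and Cldn15 in the gut, form channels for small cations and are needed for sodium to return to the lumen, where nutrient uptake uses it. Others are described as sealing claudins, and occludin, a MARVEL domain protein, sits in the same strands. The glucocorticoid receptor binds response elements made of a pair of hexamers in opposite orientation, and a common form of the hexamer is AGAACA.

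Promoter windows of 300 bases (250 before to 50 after the annotated start, RefSeq, GRCm38.p6) were found for 8 of the 10 members, with none for Cldn8 and Cldn23. They are shown for the member that rose most with Dex, the member that fell, and the other channel-forming member, which did not pass the test in any comparison. Cldn14 starts at 3 annotated places on the minus strand of chromosome 16, and its upstream window lies at chr16:94008788-94009087. The Cldn15 window lies at chr5:136967619-136967918 and the Cldn2 window at chrX:139800558-139800857, both on the plus strand. Capitals mark each match to the hexamer AGAACA or to its reverse complement TGTTCT.
Cldn14, upstream start: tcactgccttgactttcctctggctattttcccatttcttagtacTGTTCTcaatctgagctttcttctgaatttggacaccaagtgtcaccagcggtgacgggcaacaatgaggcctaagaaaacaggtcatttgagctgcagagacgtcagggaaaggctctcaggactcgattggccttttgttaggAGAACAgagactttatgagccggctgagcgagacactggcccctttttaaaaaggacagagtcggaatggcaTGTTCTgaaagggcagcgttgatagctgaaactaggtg
Cldn15: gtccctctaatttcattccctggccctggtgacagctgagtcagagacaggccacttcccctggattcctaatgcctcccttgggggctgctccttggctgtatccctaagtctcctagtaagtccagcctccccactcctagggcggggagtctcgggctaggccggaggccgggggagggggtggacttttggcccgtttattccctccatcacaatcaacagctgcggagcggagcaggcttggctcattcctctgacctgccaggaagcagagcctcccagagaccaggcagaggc
Cldn2: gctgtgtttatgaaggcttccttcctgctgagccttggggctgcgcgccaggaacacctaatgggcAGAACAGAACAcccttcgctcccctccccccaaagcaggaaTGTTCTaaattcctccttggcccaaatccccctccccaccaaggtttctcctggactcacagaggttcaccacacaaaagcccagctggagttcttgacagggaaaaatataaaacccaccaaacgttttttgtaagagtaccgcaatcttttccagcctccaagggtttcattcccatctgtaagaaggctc
The upstream Cldn14 window holds 3 hexamers, at positions 46, 191 and 263 counted from the 5′ end of the window. The Cldn2 window also holds 3, of which those at 67 and 72 overlap by a base, and the third is at 108. The Cldn15 window and the windows at the other 2 starts of Cldn14 hold none. Neither do the windows of Cldn1, Cldn3, Cldn4, Cldn7 and Ocln, which are not shown. Over all 32851 promoter windows of the table, 19% hold at least 1 hexamer on either strand. The share that holds 3 was not counted. The letters ACANNNTGT, the centre of a full element, were on either strand in 6.85% of all windows and in none of the 12 windows of the 8 members. A match is a run of letters and not a binding site.

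The treatments were visible in their usual reporters. Mt1, a metallothionein gene switched on by zinc, had 490 to 1376 normalised counts in the 6 mice on water and 11971 to 27940 in the 6 mice on ZnSO4, with no overlap. Normalised counts are read counts scaled to a library of the mean size. Fkbp5, a glucocorticoid-induced gene, had 950 to 1222 normalised counts in the 6 PBS mice and 10263 to 12396 in the 6 Dex mice. Total counts were 10760132 to 11827487 per library, and a member had between 0 and 11275 reads in a library. The tissue label was checked against markers. The 4 distal enterocyte markers were at 60851 to 117270 summed normalised counts and none was at 0, while 3 of 5 large intestine markers did not pass the filter and 1 to 3 of them were at 0 in each library. The 5 markers of exocrine pancreas summed to 2.07 at most. The 10 enterocyte markers summed to 119582 in ZnSO4 + Dex replicate 2 and to between 211322 and 300816 in the other 11 libraries, so this library stands apart. The sum of 7 B cell markers ranged from 133 to 6551 across libraries, with a wide spread within every group, and 0 of the 7 were called in any comparison by edgeR. These are bulk samples, so fewer cells of a type and less RNA per cell cannot be told apart.

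The members covered a range from Cldn7, the most abundant, to Cldn1. On a scale per length (CPM per kb, read counts scaled to a fixed library size and divided by exon length), which allows levels of different genes to be compared, the mean level over the 12 libraries was 440 for Cldn7, 295 for Cldn3, 114 for Cldn2, 103 for Cldn15, 49.2 for Cldn4, 47.4 for Ocln, 19.7 for Cldn23, 6.43 for Cldn8, 0.940 for Cldn14 and 0.566 for Cldn1. Most steps of this order were the same in all libraries. Cldn2 and Cldn15, the channel-forming pair, were not separated, with Cldn2 above Cldn15 in 8 of 12 libraries. Cldn4 was above Ocln in 5 of 12 libraries, and Cldn14 was above Cldn1 in 7 of 12. Cldn7, which binds the adhesion protein Epcam, made up 34.8% to 46.3% of the summed level of the 10 members in a library. Its share was lowest in ZnSO4 + Dex replicate 2. Within groups, Ocln varied least (coefficient of variation 7.65%), followed by Cldn15 (8.10%), and Cldn1 varied most (69.0%).

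**Figure D1:**
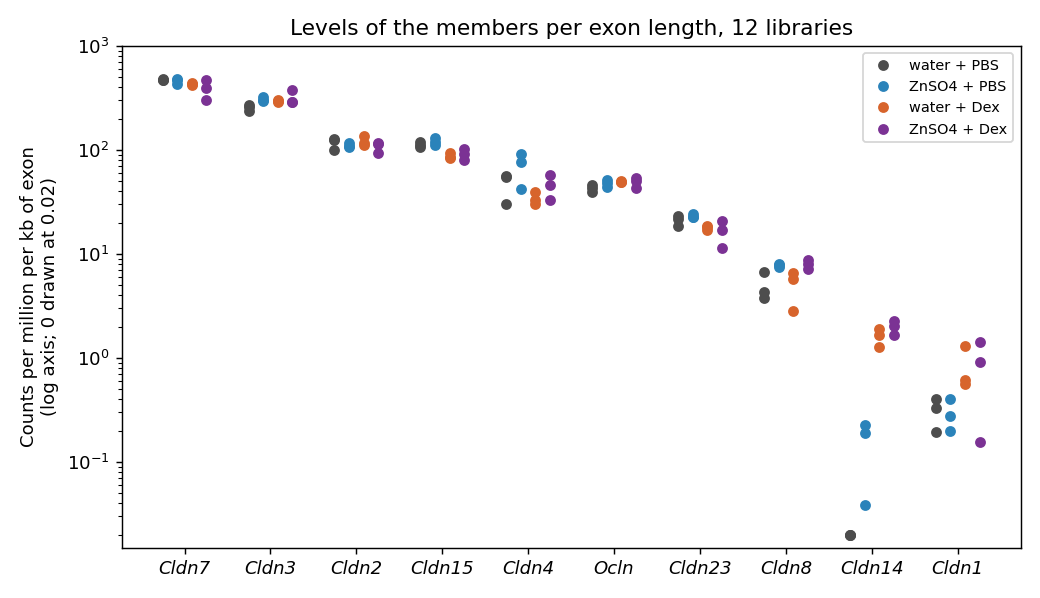
Level of each member in CPM per kb of exon (log axis, zero drawn at 0.02) in the 12 libraries, coloured by group. Means fall from 440 for Cldn7 to 0.566 for Cldn1, and Cldn14 is the member whose points lie farthest apart between groups, with 3 libraries at 0.

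Few members passed the test. With 1 edgeR quasi-likelihood fit over all genes and a Benjamini-Hochberg adjusted p under 0.05, 1 member, Cldn14, was called higher and 0 lower with zinc alone (ZnSO4 + PBS against water + PBS), where 2.11% of all 15938 genes were called higher and 2.54% lower. Cldn14 had fewer than 10 reads in each library of these 2 groups and passed the filter on low counts only through the Dex groups, so this call is given as a description. Its calls with Dex, given next, rest on the same admission. Dex alone (water + Dex against water + PBS) raised 1 member, Cldn14, and lowered 1, Cldn15, where 5.41% of all genes were called higher and 4.51% lower. Dex in mice on ZnSO4 (ZnSO4 + Dex against ZnSO4 + PBS) gave the same pair of calls, where 6.65% and 7.08% of genes were called higher and lower. ZnSO4 in mice given Dex (ZnSO4 + Dex against water + Dex) changed 0 members by edgeR and 0 by DESeq2, where 1.83% of genes were called higher and 2.54% lower. In that comparison 1 member, Cldn8, was higher at an unadjusted p under 0.05, as were 9.56% of all genes, with 9.57% lower. With both treatments against neither, 1 member, Cldn14, rose and 1, Cldn15, fell, where 11.5% of genes were called higher and 11.9% lower. With the study's size cut-off of 0.8 on the log2 scale added, Cldn14 was the 1 member left with zinc (0.747% of genes higher and 0.954% lower). It was also the 1 left with Dex on water (2.79% and 1.64%), with Dex on ZnSO4 (3.41% and 2.4%) and with both (5.1% and 4.56%). With ZnSO4 under Dex 0 were left (0.696% and 1.2%). The Cldn14 folds over a control group set at 3 reads, given below, are also past this size. The median log2 fold change (LFC) of the 10 members was 0.14 with zinc and 0.03 with Dex, against -0.01 and -0.01 over all genes tested. Groups that did not overlap were seen for 3 members higher and 0 lower with zinc (12.4% and 12.9% of all genes), for 4 higher and 2 lower with Dex on water (15.2% and 14.5%) and for 1 higher and 2 lower with Dex on ZnSO4 (14.2% and 14.9%). They were seen for 1 higher and 0 lower with ZnSO4 under Dex (12.7% and 13.2%) and for 3 higher and 1 lower with both treatments (18% and 18.9%). The comparisons of ZnSO4 + PBS, water + Dex and ZnSO4 + Dex with water + PBS share the same control mice. Those of zinc without and with Dex share none, and neither do those of Dex without and with zinc.

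**Figure D2:**
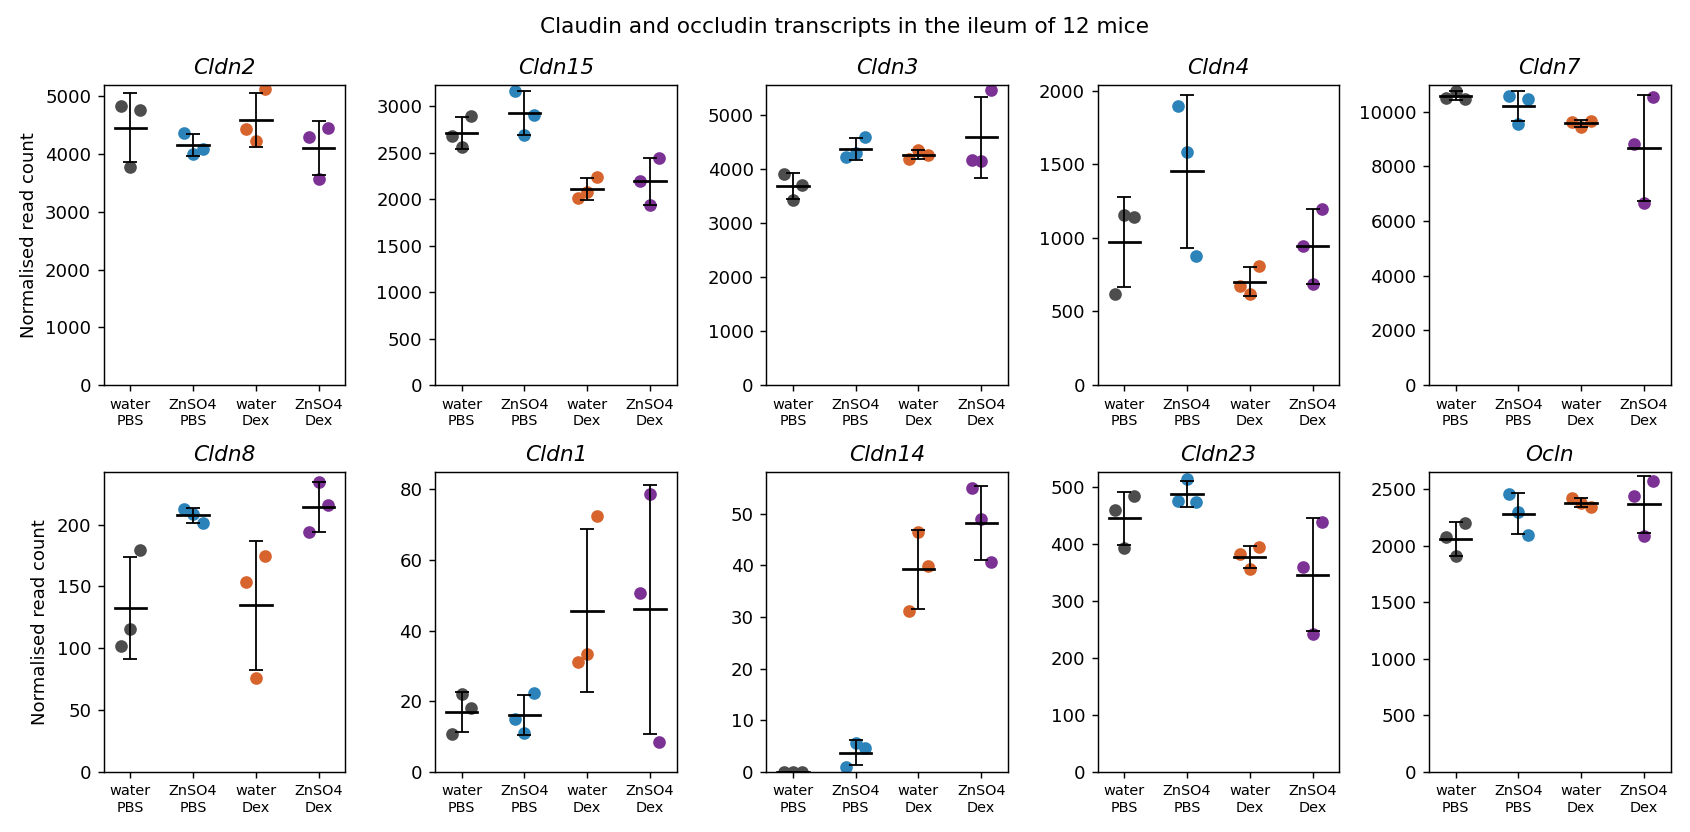
Normalised read counts of the 10 members by mouse in the 4 groups (points), with the group mean (bar) and SD (whiskers, n = 3), each panel on its own axis from 0. Cldn14 is at or near 0 without Dex and at 31.2 to 55.0 with it, and Cldn15 is lower in all 6 Dex mice than in all 6 PBS mice.

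Cldn15 (ENSMUSG00000001739, chr5:136966616-136975858, plus strand, GRCm38) forms a channel for sodium along the small intestine. Its normalised counts were 2683, 2561 and 2894 in the water + PBS mice and 3168, 2696 and 2904 in the ZnSO4 + PBS mice. They were 2010, 2078 and 2235 in the water + Dex mice and 2196, 1936 and 2442 in the ZnSO4 + Dex mice. Every Dex mouse, on water or on ZnSO4, was below every PBS mouse. Group means were 2713 ± 169 (SD, n = 3) with water + PBS and 2108 ± 115 (SD, n = 3) with water + Dex. With Dex on water Cldn15 fell by 22.3% (LFC -0.36, SE 0.10, edgeR adjusted p = 0.035). With Dex on ZnSO4 it fell by 25.0% (LFC -0.42, SE 0.10, adjusted p = 0.014). With both treatments against neither it fell by 19.2% (LFC -0.31, SE 0.10, adjusted p = 0.039), a call kept in 4 of 12 omissions of 1 library and lost without any of the 7 libraries named next or ZnSO4 + Dex replicate 2. The call on water was lost when any 1 of 7 libraries was left out (water + PBS replicates 1 and 3, ZnSO4 + PBS replicate 3, the 3 water + Dex replicates or ZnSO4 + Dex replicate 1), with an LFC between -0.41 and -0.31 and an adjusted p of at most 0.126 over the 12 omissions. The call on ZnSO4 was lost without ZnSO4 + PBS replicate 1 (adjusted p = 0.067). When both effects of Dex were averaged, a contrast chosen after seeing the data, Cldn15 fell by 23.7% (95% interval from -31.2% to -15.3%, adjusted p = 0.0016). In that contrast 2 members were called lower and 2 higher, where 11.2% of all genes were called lower and 10.4% higher. The averaged fall of Cldn15 passed the test in the 18 alternative settings run, the 12 omissions included. With ZnSO4 the LFC of Cldn15 was 0.11 (95% interval -0.10 to 0.32) in PBS mice and 0.06 (-0.16 to 0.27) in Dex mice, neither past the test.

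Cldn2 (ENSMUSG00000047230, chrX:139800828-139811386, plus strand), the channel for sodium and water that is most prominent in leaky epithelia, had 4839, 3771 and 4754 normalised counts in the water + PBS mice and 4371, 3999 and 4085 with ZnSO4 + PBS. It had 4426, 4229 and 5119 with water + Dex and 4296, 3571 and 4447 with ZnSO4 + Dex. All 4 groups overlapped. The LFC with Dex was 0.04 on water (95% interval -0.22 to 0.31) and -0.02 on ZnSO4 (-0.28 to 0.25). The level per length of Cldn15 relative to Cldn2, given as a description, was 0.961 ± 0.098 (SD, n = 3) with water + PBS and 1.10 ± 0.041 with ZnSO4 + PBS. It was 0.721 ± 0.044 with water + Dex and 0.836 ± 0.032 with ZnSO4 + Dex. Each Dex mouse was at 0.860 or below and each PBS mouse at 0.868 or above.

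Cldn14 (ENSMUSG00000047109, chr16:93919031-94008837, minus strand), a claudin that restricts the passage of cations and is best known from the kidney tubule and the inner ear, had the largest fitted change of the members with Dex. It had 0 reads in all 3 water + PBS libraries, where a count of 0 over the group allows up to 3 reads, or 0.0857 CPM. It had 1, 6 and 5 reads in the ZnSO4 + PBS mice. With water + Dex it had 28, 43 and 37 reads, and with ZnSO4 + Dex 53, 51 and 38. Each step from control to zinc to Dex was free of overlap, and the 2 Dex groups overlapped. As a fold over a group at 0 has no value of its own, each group was set against 3 reads over the control group. On this scale Cldn14 was 40.3-fold higher with water + Dex (108 reads, edgeR adjusted p = 9.2e-05) and 49.5-fold higher with ZnSO4 + Dex (142 reads, adjusted p = 3.6e-05). It was 3.81-fold higher with ZnSO4 + PBS, from 12 reads in all. These folds allow for counting error in the control group only. The counting error of the treated reads and the spread between mice are not covered. Within mice on ZnSO4, where no group is at 0, Dex raised Cldn14 from 3.69 ± 2.42 to 48.2 ± 7.22 normalised counts (SD, n = 3), an LFC of 3.66 (SE 0.40, adjusted p = 3.0e-04). Cldn14 passed the filter on low counts through the Dex groups, where it is high. The calls with Dex on water, with Dex on ZnSO4 and with both rest on this admission. They held in each of the 12 omissions, which do not test the admission. The zinc comparison alone would not have admitted it to the test, and its zinc call (adjusted p = 0.033), which is a description, was lost without any 1 of the 3 water + PBS libraries, of ZnSO4 + PBS replicates 2 and 3 or of water + Dex replicate 3, and its adjusted p ranged from 0.015 to 0.097 over the alternatives. Among Dex mice, the LFC with ZnSO4 was 0.30 (95% interval -0.40 to 0.99, adjusted p = 0.66). The interaction of zinc and Dex was not called (adjusted p = 0.95), and its fit depends on the control group at 0.

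Cldn14 was still a minor transcript. With Dex it made up 0.125% to 0.234% of the summed level per length of the 10 members. The 3 genes of at least 10 CPM whose log2 levels followed it most closely over the 12 libraries were Errfi1, a feedback inhibitor of the EGF receptor (Pearson r 0.98), Cables1 (0.98) and Sgk1, the serum- and glucocorticoid-regulated kinase (0.98). Sgk1 had 3108 ± 327 normalised counts with water + PBS, 4686 ± 282 with ZnSO4 + PBS, 16992 ± 269 with water + Dex and 19745 ± 4459 with ZnSO4 + Dex (SD, n = 3). For Cldn15 they were Ubqln4 (r 0.98), Capn10 (0.97) and Oaf (0.96). These 12 points share 4 groups, so such values describe a pattern across groups and carry no test.

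**Figure D3:**
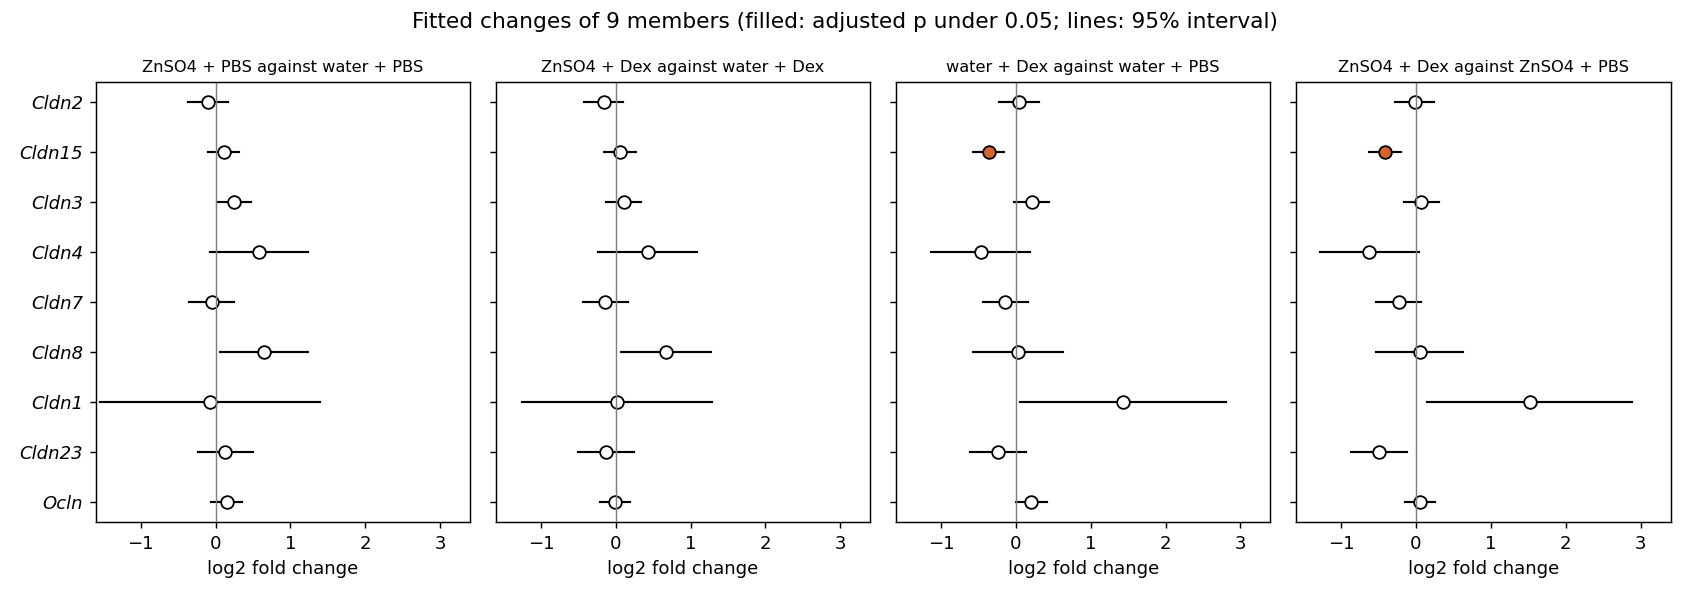
Fitted LFC of the 9 members other than Cldn14 (points) with 95% intervals (lines) for zinc without and with Dex and for Dex without and with zinc. Filled points passed an adjusted p under 0.05, which was Cldn15 in both Dex panels. The intervals of Cldn1 are the widest, and those of Cldn8 lie above 0 in both zinc panels without passing the adjusted threshold.

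Cldn8 (ENSMUSG00000050520, chr16:88560828-88563183, minus strand), a sealing claudin of tight epithelia such as the distal colon and the collecting duct, was the member with the largest fitted difference with zinc after Cldn14. It had 102, 115 and 180 normalised counts with water + PBS and 213, 209 and 201 with ZnSO4 + PBS. With water + Dex it had 154, 75.6 and 175, and with ZnSO4 + Dex 194, 234 and 216. All 6 ZnSO4 mice were above all 6 water mice. The LFC was 0.65 (SE 0.27) in PBS mice and 0.67 (SE 0.27) in Dex mice, and neither passed over all genes (edgeR adjusted p = 0.21 and 0.20). Averaged over both, a contrast chosen after seeing the data, Cldn8 was 57.9% higher with ZnSO4 (95% interval 18.1% to 111%, adjusted p = 0.044). In that contrast Cldn8 and Cldn14 were called higher and 0 members lower, where 6.24% of all genes were called higher and 6.52% lower. The Cldn14 call is given as a description, as that gene passed the filter on low counts only through the Dex groups. Among Dex mice its LFC with ZnSO4 was 0.30 (edgeR adjusted p = 0.66). The Cldn8 call held in 3 of 12 omissions, with an LFC between 0.53 and 0.80 and an adjusted p of at most 0.089 over all settings. It was lost without any 1 of the 3 ZnSO4 + PBS or the 3 ZnSO4 + Dex mice, without water + PBS replicates 1 and 2, or without water + Dex replicate 1. With Dex the LFC of Cldn8 was 0.03 (95% interval -0.57 to 0.63) on water. The summed level of 5 large intestine markers was 399 to 533 with water + PBS and 174 to 433 with ZnSO4 + PBS, and 483 to 808 with water + Dex and 203 to 310 with ZnSO4 + Dex. Of these 5, 1 to 3 were at 0 in each library and only 2 were tested. With ZnSO4, 0 of the 2 were called in PBS mice and 1 was called lower in Dex mice. Markers of other cell types also differed with ZnSO4. The sum of 6 goblet cell markers was 143714 to 145385 with water + PBS and 159610 to 192388 with ZnSO4 + PBS, and 162024 to 171710 with water + Dex and 185504 to 218846 with ZnSO4 + Dex, with 1 of the 6 called higher in each of these comparisons and none at 0 in any library. The sum of 5 T cell markers was 718 to 1188 with water + PBS and 346 to 653 with ZnSO4 + PBS, and 709 to 958 with water + Dex and 371 to 429 with ZnSO4 + Dex, with 1 and 3 of the 5 called lower and none at 0. The part of these markers in the Cldn8 values was not tested. Against neither treatment, both together gave Cldn8 an LFC of 0.70 (SE 0.27, edgeR adjusted p = 0.087), which DESeq2 called (adjusted p = 0.047).

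Cldn1 (ENSMUSG00000022512, chr16:26356642-26371841, minus strand) is a sealing claudin best known from the skin barrier, and it was the least abundant member here. It had 10.7, 22.1 and 18.1 normalised counts with water + PBS and 15.1, 10.98 and 22.2 with ZnSO4 + PBS. It had 31.2, 33.5 and 72.4 with water + Dex and 50.8, 78.8 and 8.54 with ZnSO4 + Dex. Of the 6 Dex mice 5 were above every PBS mouse, and ZnSO4 + Dex replicate 3 was below all of them. The LFC with Dex was 1.43 (SE 0.63, edgeR adjusted p = 0.20) on water and 1.52 (SE 0.62, adjusted p = 0.14) on ZnSO4, neither past the test. Without ZnSO4 + Dex replicate 3 the latter was 2.00 (adjusted p = 0.013). The average of both Dex effects, chosen after seeing the data, was 1.47 (SE 0.44, adjusted p = 0.034), and it held in 5 of 12 omissions. It was lost without water + PBS replicates 1 and 3, ZnSO4 + PBS replicates 1 and 2, water + Dex replicate 3 or ZnSO4 + Dex replicates 1 and 2, with an adjusted p of at most 0.095, and with a B cell marker covariate (adjusted p = 0.156). Markers of mesothelium, the serosal lining of the gut wall, also differed between mice. Their sum over 5 markers, none of which was at 0 in any library, was 362 to 480 with water + PBS and 129 to 409 with ZnSO4 + PBS, 329 to 529 with water + Dex and 130 to 623 with ZnSO4 + Dex. In ZnSO4 + Dex replicates 1, 2 and 3, Upk3b, a defining mesothelial gene, had 139, 252 and 20.3 normalised counts beside 50.8, 78.8 and 8.54 for Cldn1. In water + PBS it had 103, 77.3 and 121 beside 10.7, 22.1 and 18.1 for Cldn1, where the highest Cldn1 went with the lowest Upk3b. In the same order of replicates it had 134, 3.66 and 86.1 with ZnSO4 + PBS and 151, 92.9 and 205 with water + Dex. Of the 5 markers 0 were called with Dex on water or on ZnSO4 by edgeR, and their part in the Cldn1 values was not tested.

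**Figure D4:**
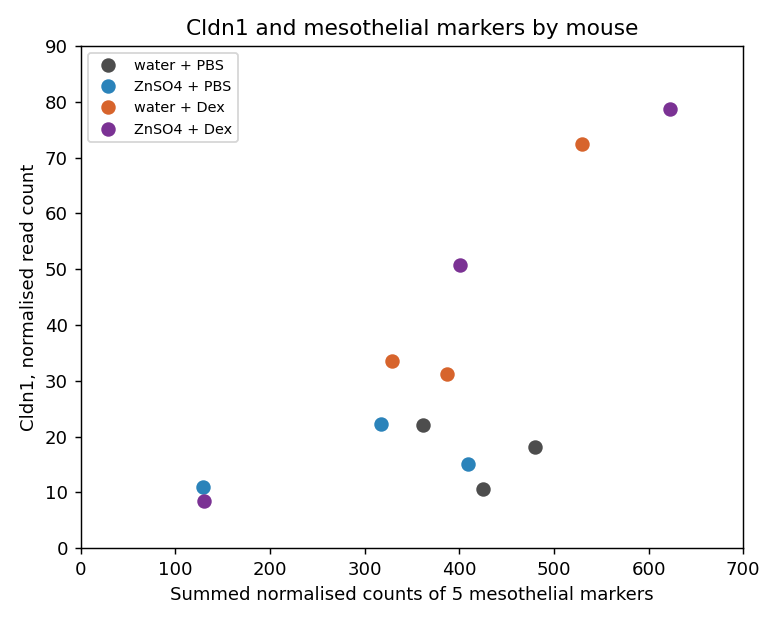
Normalised counts of Cldn1 against the summed normalised counts of 5 mesothelial markers in the 12 mice, coloured by group. The mouse with the highest Cldn1 (78.8) has the highest sum (623), while the 3 water + PBS mice have sums of 362 to 480 with Cldn1 of 22.1 at most.

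The abundant sealing members did not pass the test in any comparison of 2 groups by edgeR. Cldn3 (ENSMUSG00000070473, chr5:134986214-134987472, plus strand), widely present in intestinal epithelium, had 3909, 3429 and 3706 normalised counts with water + PBS and 4214, 4288 and 4589 with ZnSO4 + PBS. With Dex it had 4176, 4349 and 4249 on water and 4157, 4140 and 5448 on ZnSO4. Every treated mouse was above every water + PBS mouse. The LFC was 0.25 (SE 0.11, edgeR adjusted p = 0.23) with zinc, 0.21 (SE 0.11, adjusted p = 0.27) with Dex and 0.32 (SE 0.11, adjusted p = 0.052) with both, and these 3 values rest on the same control mice. The last of them was called by DESeq2, with upper-quartile factors, with only genes of at least 10 counts in every library and without ZnSO4 + Dex replicate 1 or 2, with an adjusted p from 0.027 to 0.169 over all alternatives. Cldn3 has a single exon that shares 40 bases (3.2%) with Wbscr25 on the opposite strand, and the strand setting of the read counting was not given in the sources used here.

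Cldn7 (ENSMUSG00000018569, chr11:69964779-69967885, plus strand) was at 10574 ± 169 (SD, n = 3) normalised counts with water + PBS, 10189 ± 553 with ZnSO4 + PBS, 9568 ± 128 with water + Dex and 8672 ± 1936 with ZnSO4 + Dex. The spread of the last group comes from 8819, 6667 and 10530, where the lowest mouse is ZnSO4 + Dex replicate 2, the library with few enterocyte transcripts. The LFC with both treatments was -0.29 (SE 0.14, adjusted p = 0.16), and it was -0.13 (adjusted p = 0.34) without that library. Cldn23 (ENSMUSG00000055976, chr8:35824712-35826559, minus strand), a claudin of the luminal epithelium, had 459, 393 and 484 normalised counts with water + PBS and 476, 513 and 473 with ZnSO4 + PBS. It had 382, 356 and 394 with water + Dex and 359, 241 and 439 with ZnSO4 + Dex. The Dex mice on ZnSO4 lay below their controls, with the lowest value again in replicate 2. The LFC with Dex was -0.24 (SE 0.17, adjusted p = 0.45) on water and -0.50 (SE 0.17, adjusted p = 0.079) on ZnSO4, and the latter was -0.29 (adjusted p = 0.15) without replicate 2 and -0.70 (adjusted p = 0.013) without replicate 3. DESeq2 called it (adjusted p = 0.047). The average of both Dex effects, chosen after seeing the data, gave Cldn23 an LFC of -0.37 (SE 0.12, adjusted p = 0.048), at which it fell by 22.4%, and this call held in 3 of 12 omissions. It was lost without each of the 3 ZnSO4 + PBS and the 3 water + Dex libraries, water + PBS replicates 1 and 3, and ZnSO4 + Dex replicate 1, with an adjusted p of at most 0.103, and with RLE factors (0.052) or a B cell marker covariate (0.105).

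Cldn4 (ENSMUSG00000047501, chr5:134945119-134946934, minus strand), a sealing claudin, was the most variable of the abundant members (coefficient of variation 32.5% within groups). It had 618, 1158 and 1142 normalised counts with water + PBS and 1892, 1581 and 879 with ZnSO4 + PBS. It had 676, 619 and 809 with water + Dex and 945, 689 and 1196 with ZnSO4 + Dex. Groups overlapped in each of the 5 comparisons of 2 groups. The LFC was 0.58 (95% interval -0.08 to 1.23, edgeR adjusted p = 0.32) with zinc and -0.47 (-1.14 to 0.19, adjusted p = 0.40) with Dex, and both intervals include 0. Averaged over both drinking water groups, a contrast chosen after seeing the data, the LFC with Dex was -0.55 (adjusted p = 0.094), a change of -31.5% (95% interval -50.5% to -5.37%). Averaged in the same way over PBS and Dex mice, it was 0.50 with zinc (adjusted p = 0.147), a change of 41.6% (2.44% to 95.7%). Neither passed over all genes, and both intervals leave out 0.

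Ocln (ENSMUSG00000021638, chr13:100496507-100552718, minus strand) encodes occludin. It had 2081, 1906 and 2203 normalised counts with water + PBS and 2463, 2295 and 2098 with ZnSO4 + PBS. It had 2422, 2379 and 2348 with water + Dex and 2441, 2086 and 2576 with ZnSO4 + Dex. The 3 water + Dex mice were above the 3 water + PBS mice, by an LFC of 0.21 (95% interval 0.01 to 0.41, edgeR adjusted p = 0.21), which did not pass over all genes. With zinc the LFC was 0.15 (95% interval -0.06 to 0.35) in PBS mice and -0.01 (-0.21 to 0.19) in Dex mice. Of the 10 members, 0 had an interaction of zinc and Dex past adjusted p under 0.05 by edgeR or by DESeq2, and 1, Cldn14, had an unadjusted p under 0.05, as had 2.6% of all genes with a positive and 2.38% with a negative interaction, while 0 of all genes passed the adjusted threshold.

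The claudins outside the 10 were mostly silent. Of 24 other claudin genes, 3 passed the filter (Cldn5, Cldn10 and Cldn12), 10 had no read in any library, and none of the rest had more than 9 reads in a library. Cldn5, the claudin of endothelial cells, fell with Dex from 50.9 to 21.8 mean normalised counts (LFC -1.22, SE 0.26, edgeR adjusted p = 0.011). On ZnSO4 it fell from 60.6 to 34.4 (LFC -0.81, SE 0.25, adjusted p = 0.0496), a call that 13 of 20 alternatives did not keep, with an adjusted p of at most 0.148. These include the omission of any PBS mouse, of water + Dex replicate 2 and of ZnSO4 + Dex replicate 1 or 3. Of 6 endothelial markers 1, Kdr, was called lower with Dex, on water and on ZnSO4. The sum of the 6 was 1413 to 1851 with water + PBS and 1271 to 1393 with water + Dex. On ZnSO4 it was 1783 to 1898 with PBS and 1492 to 1625 with Dex. Their part in the Cldn5 values was not tested. Cldn10 rose with both treatments against neither, from 7.16 to 16.5 (LFC 1.19, SE 0.33, adjusted p = 0.022), on 7 to 24 reads in a library of these groups. That call was lost without water + PBS replicate 1 or 3 or ZnSO4 + Dex replicate 2, and by DESeq2 (adjusted p of at most 0.125).

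Genes of proteins that accompany or anchor the claudins changed in both directions with Dex. Of 18 plaque and other junction membrane proteins tested, 3 rose (Amotl1, Ildr1 and Cgn) and 3 fell (Amot, Marveld2 and Tjp3) with Dex on water (median LFC 0.07, against -0.01 over all genes), where 5.41% of all genes were called higher and 4.51% lower. With Dex on ZnSO4, 4 rose and 5 fell (median -0.00, against 0.01), where 6.65% and 7.08% of genes were called. The 6 genes called on water were called in the same direction on ZnSO4. Cgn, which encodes cingulin of the cytoplasmic plaque, rose from 1745 to 2769 mean normalised counts on water (LFC 0.67, SE 0.13, edgeR adjusted p = 0.0080). Amotl1 rose by an LFC of 0.86 on water and 0.72 on ZnSO4, and its paralog Amot fell by 0.65 and 0.85 on the log2 scale. Ildr1, an angulin of tricellular contacts, rose by an LFC of 0.75 and 0.80. Marveld2, the tricellulin of the same contacts and a relative of occludin, fell from 475 to 352 on water (LFC -0.43, adjusted p = 0.0078) and from 531 to 330 on ZnSO4 (LFC -0.69, adjusted p = 3.0e-04). Tjp1, the ZO-1 scaffold, was not called in either. With both treatments against neither, 3 of the 18 rose and 6 fell, where 11.5% of all genes were called higher and 11.9% lower. Cxadr was among those that fell, from 3112 to 1936 mean normalised counts (LFC -0.68, SE 0.16, edgeR adjusted p = 0.0084). That call was kept in the 12 omissions. The Ildr1 call on water was lost without water + PBS or water + Dex replicate 3 (adjusted p of at most 0.058).

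Marveld3, the third occludin relative, differed with zinc. It had 1006, 857 and 891 normalised counts with water + PBS and 581, 672 and 638 with ZnSO4 + PBS, and 829, 799 and 795 with water + Dex and 560, 401 and 596 with ZnSO4 + Dex. All 6 ZnSO4 mice were below all 6 water mice. The LFC was -0.54 (SE 0.13, edgeR adjusted p = 0.035) in PBS mice, called in 3 of 12 omissions, and -0.64 (SE 0.13, adjusted p = 0.017) in Dex mice, called in 9 of 12. The omissions that ended the first call, each of the water + PBS, ZnSO4 + PBS and water + Dex mice, gave an adjusted p of at most 0.151, and those that ended the second, each of the 3 water + Dex mice, at most 0.068. The goblet and T cell sums given with Cldn8 differ between the same groups, and their part in the Marveld3 values was not tested. Marveld3 was the 1 of 18 plaque and membrane genes called with zinc in either comparison. Of all genes, 2.11% were called higher and 2.54% lower in PBS mice, and 1.83% and 2.54% in Dex mice.

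Outside the tight junction, 0 of 15 polarity genes were called with Dex on water by edgeR, where 5.41% of all genes were called higher and 4.51% lower. Of the 15, 4 had an unadjusted p under 0.05, as had 3623 of all 15938 genes. On ZnSO4, where 7.08% of genes were called lower, 2 fell, Pard6b (LFC -0.75, adjusted p = 0.043) and Magi3 (LFC -0.42, adjusted p = 0.037). These calls were kept in 2 and 4 of 12 omissions (water + PBS replicate 2 and ZnSO4 + Dex replicate 3 for Pard6b, any water + PBS mouse and ZnSO4 + Dex replicate 1 for Magi3). Of 17 genes of adherens junctions and desmosomes, 2 fell with Dex on water, Nectin2 (LFC -0.51, SE 0.11, adjusted p = 0.0099) and Nectin3 (LFC -0.47, SE 0.12, adjusted p = 0.031), and 0 rose, where 4.51% of all genes were called lower (median LFC of the list 0.02, against -0.01 over all genes). On ZnSO4 these 2 and Dsc2, Dsg2 and Pkp3, desmosomal genes, fell, with an LFC between -0.64 and -0.46, where 7.08% of genes were called lower (median -0.16, against 0.01). ZnSO4 + Dex replicate 2, the library with few enterocyte transcripts, had the lowest value of the 12 libraries for each of these 5 genes, such as 1236 normalised counts of Nectin3 and 1985 of Dsc2. Without it the LFC on ZnSO4 was -0.41 (adjusted p = 0.0043) for Nectin3 and -0.47 (adjusted p = 0.015) for Dsc2. Cdh1, which encodes E-cadherin, was not called in either. On water, the Nectin2 call was lost without water + Dex replicate 3 (adjusted p = 0.054) and the Nectin3 call without water + PBS replicates 1 and 3 or any water + Dex mouse (at most 0.112). On ZnSO4, the Dsg2 and Pkp3 calls were lost without replicates 1 and 3 of ZnSO4 + PBS or 1 and 2 of ZnSO4 + Dex (at most 0.077 and 0.068). Of 5 tested genes of the Epcam and matriptase system, 0 were called in any comparison by edgeR, with 1 at an unadjusted p under 0.05 with Dex on ZnSO4 and 1 with both treatments. Of all 15938 genes, 4196 and 5734 had such a p in these comparisons.

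Of 16 regulators of junction tension and of claudin expression, 1 rose and 5 fell with Dex on water (median LFC -0.09, against -0.01 over all genes), where 5.41% of all genes were called higher and 4.51% lower. On ZnSO4, 2 rose and 6 fell (median -0.14, against 0.01), where 6.65% and 7.08% of genes were called. Cdx2 and Hnf4a, transcription factors that maintain the intestinal epithelium, fell from 2522 to 1426 (LFC -0.82, SE 0.09, edgeR adjusted p = 1.2e-04) and from 10976 to 7172 mean normalised counts (LFC -0.61, SE 0.12, adjusted p = 0.0084). Arhgef2, the RhoA activator GEF-H1 that tight junctions hold, fell by 0.68 on water and 1.07 on ZnSO4. Snai2, a repressor of epithelial genes, fell from 24.7 to 9.08 (LFC -1.43, SE 0.25, adjusted p = 0.0030). Rock2, a kinase of the actomyosin ring, was the 1 to rise. With both treatments against neither, 2 of the 16 rose and 7 fell, where 11.5% of all genes were called higher and 11.9% lower. Gata4 had the largest fitted fall of these (LFC -3.66, SE 0.84, edgeR adjusted p = 0.0089), a call kept in the 12 omissions. It had 14.6, 62.2 and 18.1 normalised counts with water + PBS and 3.11, 1.92 and 2.14 with ZnSO4 + Dex. Wnk4, a kinase known to act on claudins and on salt transport in the kidney, was the regulator called with zinc. It had 51.2 to 57.0 normalised counts with water + PBS and 109 to 111 with ZnSO4 + PBS (2.00-fold, adjusted p = 0.0012), and 47.5 to 56.2 with water + Dex and 121 to 142 with ZnSO4 + Dex (2.63-fold, adjusted p = 1.5e-04). Both Wnk4 calls held in the 20 alternatives run for each, and the part of the goblet and T cell markers in them was not tested.

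**Figure D5:**
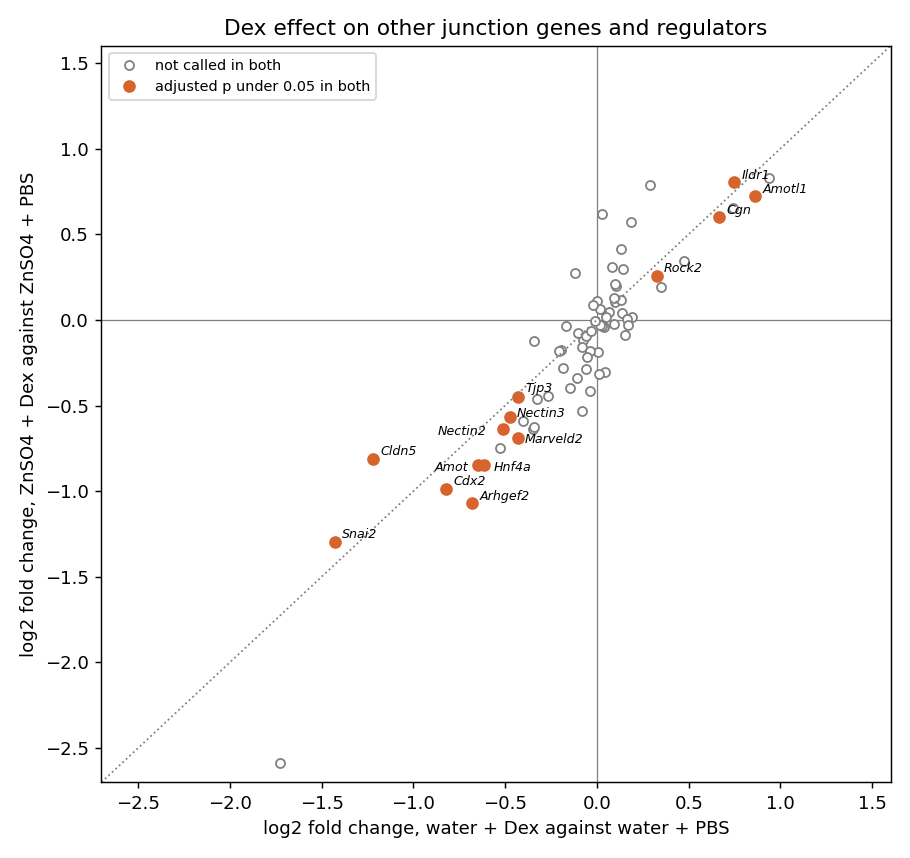
LFC with Dex on water (horizontal) and on ZnSO4 (vertical) for 72 tested genes of the other junction and regulator lists, which do not share mice between the axes. The 14 filled and named genes passed an adjusted p under 0.05 in both, 4 of them higher (Amotl1, Ildr1, Cgn and Rock2) and 10 lower, and the dotted line marks equal change. Of all genes, 5.41% were called higher and 4.51% lower on water, and 6.65% and 7.08% on ZnSO4. The share of all genes called in both was not counted.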

How the data were processed

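RNA of whole ileum from 12 mice was sequenced single-end from stranded libraries. Per the study's methods and the submitters' processing notes, the authors mapped reads to mm10 with HISAT2 2.0.4 and counted reads per gene with featureCounts, without reads that map to several places. The annotation release and strand setting are not given in the sources used here. The deposited values are raw read counts of 54838 Ensembl genes, not normalized, with 10760132 to 11827487 counts per library. Paralogs can lose reads that map to more than 1 of them.

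Counts were filtered (filterByExpr, minimum count 10), scaled by TMM and fitted with 1 mean per group over all 12 libraries (R 4.3.3, edgeR 4.0.16, glmQLFit and glmQLFTest). P-values were adjusted by Benjamini-Hochberg over 15938 genes and a gene was called at an adjusted p under 0.05. Normalised counts are counts over effective library size times its mean. Symbols, exon lengths and positions came from GENCODE for GRCm38, the assembly of mm10, and promoter windows from RefSeq (GRCm38.p6). A group at 0 was set against 3 reads over the group. Intervals (95%) are those of the fit. Folds over a group at 0 cover the counting error of that group only. The code was tested on simulated data. No 2 libraries of a group were alike enough to be 1 library (chi-square per degree of freedom 8.30 to 45.3). The labels call replicates biological and name no batch.

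The members and gene lists were chosen with earlier results of these data known. Named beside the members were Mt1 and Fkbp5, up to 4 called genes per list and comparison with the largest LFC, and the 3 genes most like each called member. Cldn12, Tjp1, Tjp3, Cdh1, Rock2, Pkp3, Kdr, Upk3b, Marveld2 on water and the contrasts averaged over both effects were chosen after values were seen. Igsf5 was not matched in the table. The plot of junction genes leaves out 2 tested genes of the lists, which are not reported here by name. Alternatives were DESeq2 1.42.0, RLE and upper-quartile factors, 2 other filters, a replicate block, a B cell marker covariate, only the groups compared, a size cut-off and the omission of each library.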

Additional observations from a re-analysis of the deposited data

How the results depend on the processing

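Of the 17 member differences at an unadjusted p under 0.05, none changed sign in any alternative. Of 657 alternative values for the other 33, 31 changed sign and 3 passed the test. With zinc 1 member, Cldn14, was called higher, and 0 with only genes of at least 10 counts in every library, with the replicate block or with only the groups compared, and 0 to 1 when 1 library was left out. Dex raised 1, and 0 under the strict filter, which drops Cldn14. It lowered 1, and 0 with all genes of at least 1 count or with the 0.8 cut-off, and 0 to 1 over omissions. Averaged Dex effects gave 2 higher and 2 lower, and averaged zinc effects 2 higher, of which Cldn14 is given as a description. Dex on ZnSO4 raised 1 (0 under the strict filter, 1 to 2 over omissions) and lowered 1 (2 by DESeq2, 0 with only the groups compared or the 0.8 cut-off, 0 to 2 over omissions). Both treatments raised 1 (3 by DESeq2, 2 with upper-quartile factors, 1 to 3 over omissions) and lowered 1 (0 with all genes of at least 1 count, the B cell covariate, only the groups compared or the 0.8 cut-off, 0 to 3 over omissions). With only the groups compared, the zinc comparison drops Cldn14 at the filter. Except for this, the strict filter and the size cut-off, the cause of these moves was not tested. For the other junction genes named, 832 of 915 alternative values kept their call, 83 lost it and none changed sign.

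The replicate numbers gave no sign of pairing the mice. The median correlation of deviations was -0.04 (range -0.34 to 0.50) over 18 pairs with the same number and 0.01 over 36 others. Such a comparison cannot show that the mice were unpaired. With the numbers as a block, zinc raised 0 members (Cldn14 adjusted p = 0.063, edgeR), the averaged Dex effect on Cldn1 was not called (0.059), and the calls with Dex, in both drinking water groups, and with both treatments did not change for the members. With 3 mice a group, small changes of members such as Cldn1 and Cldn4, whose values spread widely within groups, were not detectable.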
